A study of Mus musculus with 3 samples.

Results

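The genes described here make coenzyme Q (ubiquinone) in mouse mitochondria, and the data are the sites bound by the nuclear receptor ESRRA in villus cells of the mouse duodenum. The 9 genes were chosen by function: Pdss1, Pdss2, Coq2, Coq3, Coq4, Coq5, Coq6, Coq7 and Coq9, of 22367 protein-coding genes in the annotation. A gene was linked to a binding site when the midpoint of the ESRRA peak lay within 30 kb of any of its annotated transcript starts, and genes with no such peak were kept and are described as well. Of the 1639 peaks, 1 was linked to these genes, and it lay at the start of Coq7. The other 8 genes had no ESRRA peak within 30 kb, with the nearest at 52.4 to 1242 kb.

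Coenzyme Q is a lipid that carries electrons within the inner mitochondrial membrane. It takes them from complex I, complex II and several other dehydrogenases and hands them to complex III, which passes them on through cytochrome c. The molecule is a ring derived from tyrosine joined to a long isoprenoid tail: one set of enzymes builds the tail, another joins it to the ring, and a group of proteins on the matrix side of the membrane then modifies the ring. ESRRA is an orphan nuclear receptor known for its place in the control of mitochondrial genes. It binds DNA at an extended half-site, in which the core AGGTCA is preceded by a few further bases, as in TCAAGGTCA.

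Chromatin bound by ESRRA was sequenced (ChIP-seq) in 2 libraries from villus cells of the duodenal epithelium of adult wild-type (WT) C57BL/6 mice on regular chow, with 1 library of input chromatin from the same kind of cells. No mutant, diet or treatment group entered the ChIP-seq, and the age and the number of mice behind each library are not given in the sources used here. The authors merged the reads of both ChIP libraries before calling peaks, so the list is 1 pooled measurement with no replicates. It gives a chromosome, a start and an end for each peak and no height or score, so that no peak could be ranked by strength. The study's methods state a range of sequencing depth for the libraries, but the reads behind each peak cannot be read from the list. All 1639 peaks were 601 bp wide and lay on 21 chromosomes, 489 of them (29.8%) within 1 kb of an annotated start, and 324 consisted mostly of sequence with more than 10 copies in the genome. Expression was not measured in these libraries, so the villus identity of the cells was not tested against marker genes.

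The sequence around the Coq7 peak, the only linked peak, is shown first. The stretch below runs from the start codon of Coq7 through the rest of exon 1 into intron 1 (mm9, chr7:125676466-125676765, minus strand, 5′ to 3′ along the gene), 73 coding and 227 intron bases. Capitals mark the bases most like TCAAGGTCA in the peak, which differ from it at 2 positions and contain the core AGGTCA.
Coq7: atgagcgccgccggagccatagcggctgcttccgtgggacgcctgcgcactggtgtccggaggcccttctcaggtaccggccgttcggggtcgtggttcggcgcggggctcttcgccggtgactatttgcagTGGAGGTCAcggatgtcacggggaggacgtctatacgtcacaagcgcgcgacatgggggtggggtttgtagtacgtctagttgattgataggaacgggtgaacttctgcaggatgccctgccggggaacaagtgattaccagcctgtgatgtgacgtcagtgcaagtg

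Another 4 short stretches come from members that had no peak near them, and are shown because each holds the full extended half-site or the longer core in capitals close to an annotated start. Each is read on the strand that carries the capitals, in mm9.
Coq9, before the gene (chr8:97361879-97361907, plus strand): tggaggagacTCAAGGTCAccaccgatgg
Coq9, within an exon of a shorter transcript (chr8:97374945-97374973, minus strand): tctgcccgggTCAAGGTCAagtcttgtag
Coq4, intron (chr2:29650120-29650148, minus strand): aatcaggagtTCAAGGTCAtctttagcta
Pdss1, before the gene (chr2:22750782-22750811, plus strand): aagctaagagatAAGGTCAacttagcttct

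Coq7 encodes the hydroxylase that carries out the next-to-last step on the ring, and it was the only member with ESRRA bound within 30 kb of a start. The gene (ENSMUSG00000030652) lies on the minus strand at chr7:125653173-125676870, and the peak at chr7:125676342-125676942. The midpoint of the peak lay in intron 1, 173, 186 and 228 bp downstream of the 3 annotated starts of the gene, of which the first and the last begin protein-coding transcripts and the middle a transcript with a retained intron. From its upstream edge the peak covered 72 bases before the outermost start, all 178 bases of exon 1 and 351 bases of intron 1, which is 3441 bp long. All 3 starts therefore lay inside the peak.

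The Coq7 peak stood alone. The next peak on the chromosome was 173 kb away, and no gene other than Coq7 had a start within 30 kb of it. Among all peaks, 1043 (63.6%) had no other peak within 30 kb, so an isolated peak was common. A peak with a single gene in reach was less so: 423 of all peaks (25.8%) and 100 of the 489 promoter peaks (20.4%) had exactly 1 gene start within 30 kb, and the median promoter peak had 3. Of all peaks, 147 (8.97%) lay within 173 bp of a start, as the Coq7 peak did.

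The Coq7 peak was rich in CpG. Its sequence was single-copy, with a GC content of 57.9%, against a median of 48.8% over all peaks and 56.2% over promoter peaks. It held 48 CpG dinucleotides, 0.962 of the number its C and G content would give, where the median was 0.243 over all peaks and 0.596 over promoter peaks. Motifs were matched by exact letters on both strands. The core AGGTCA occurred once, in intron 1 at chr7:125676625-125676630 on the strand of the gene, 15 bp from the midpoint of the peak and 243 bp downstream of the outermost start. The longer core AAGGTCA and the extended TCAAGGTCA contain these letters, and neither was present in the Coq7 peak. Over all peaks, AGGTCA was present in 61.4%, AAGGTCA in 44.0% and TCAAGGTCA in 14.3%.

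**Figure D1:**
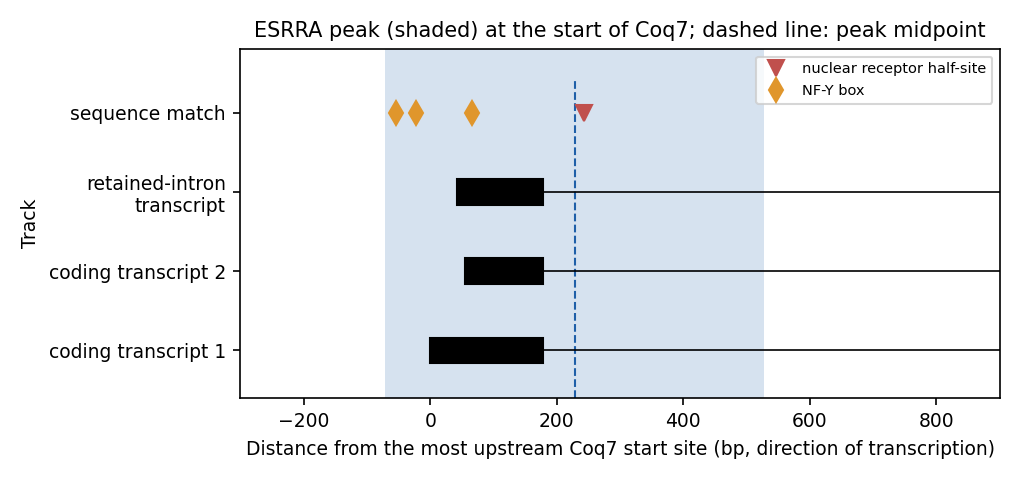
Map of the Coq7 start region with the ESRRA peak, drawn to scale in bp from the outermost annotated start, with the direction of transcription to the right. The peak reaches from 72 bases before that start into intron 1, its midpoint lies 228 bp downstream, and the half-site core lies 15 bp from the midpoint.

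When mismatches to TCAAGGTCA were counted, the best match in the Coq7 peak was TGGAGGTCA at chr7:125676625-125676633, with 2 mismatches and 13 bp from the midpoint. Over all peaks the best match had 0 mismatches in 234 (14.3%), 1 in 525 (32%), 2 in 767 (46.8%) and more in the rest, so the Coq7 peak fell in the largest class. There were 2 other sites with 2 mismatches in the same peak, both farther from its centre: TCAGGGTGA at 181 bp, in the untranslated part of exon 1, and TCAAGTTCC at 182 bp, in intron 1. Ties in mismatches went to the site nearest the midpoint. Of the motifs of other factors, CCAAT (NF-Y) occurred 3 times, 54 and 23 bp upstream and 66 bp downstream of the outermost start. CCAAT was present in 55.3% of all peaks and in 53.3% of the 601-base windows around the starts of protein-coding genes. No match was found for CCGGAAG (ETS factors, in 8.05% of all peaks), GCATGCGC (NRF1, 1.1%), GGGCGG (SP factors, 23.2%), CAAAGTCCA (HNF4, 2.56%) or TTTATGG (CDX factors, 6.59%).

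Set against the annotation, 1 of 9 members (11.1%, exact 95% interval 0.281 to 48.2%) had a peak within 30 kb, where 1956 of 22367 protein-coding genes (8.75%) had one. Within 1 kb of a start the count was again 1 of 9, where 465 protein-coding genes (2.08%) had a peak. The Clopper-Pearson interval covers counting error over genes only, and it takes in both shares of all genes. The distance from a start to the nearest peak had a median of 95.8 kb over the members and of 448 kb over all protein-coding genes. In order of distance the members ran Coq7, Coq9, Coq5, Coq6, Coq2, Pdss2, Coq4, Pdss1 and Coq3, at the 0.608, 12.7, 14.8, 16.4, 19.2, 25.9, 45.5, 50.4 and 75.7 percentiles of all protein-coding genes. The list falls into 3 ranges: Coq7 with a peak at its start, 4 members with one at 50 to 100 kb, and 4 with none nearer than 147 kb. The choice of distance matters here, since within 100 kb 5 of 9 members (55.6%) had a peak, beside 4423 protein-coding genes (19.8%). The choice of start matters too, since for Pdss2, Coq2, Coq3, Coq4 and Coq5 the start nearest to a peak lay inside the gene. From the outermost start of Coq2 (chr5:101104159) its nearest peak, with midpoint chr5:100997617, lay more than 100 kb away. The count within 100 kb, the range of 50 to 100 kb and the median of 95.8 kb therefore rest on using all annotated starts. No member had its nearest peak between 173 bp and 52.4 kb.

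**Figure D2:**
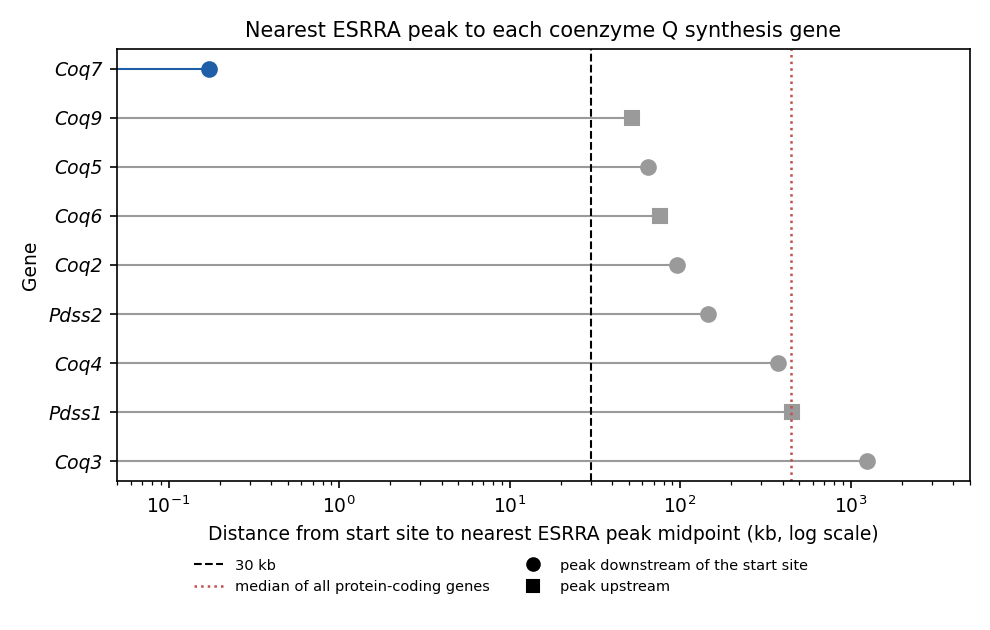
Distance in kb (log axis) from a start of each of the 9 coenzyme Q synthesis genes to the midpoint of its nearest ESRRA peak, 1 point per gene, with the 30-kb limit marked. Coq7 lies at 0.173 kb, and the other 8 lie beyond the limit, from Coq9 at 52.4 kb to Coq3 at 1242 kb.

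The pair that builds the isoprenoid tail had no peak in reach. Pdss1 and Pdss2 encode the subunits of the prenyl diphosphate synthase. The nearest peak to Pdss1 (chr2:22751042-22795786, plus strand) lay 454 kb upstream, consisted of multi-copy sequence and was itself 35033 bp from the nearest gene start, that of Gm13342. For Pdss2 (chr10:42941292-43184688, plus strand) it lay 147 kb downstream of a start inside the gene, at chr10:43113727, and farther from the outermost start. That peak was 506 bp from the start of 1700021F05Rik and held AAGGTCA. Coq2, the prenyltransferase that joins tail and ring (chr5:101083742-101104159, minus strand), had its nearest peak 95.8 kb downstream of a start inside the gene, at chr5:101093438. The 5 peaks nearest to Coq2, the number listed for every member, all lay between 95.8 and 112 kb. The gene nearest to the first of them was Plac8, with a start at 3594 bp.

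Coq3, Coq5 and Coq6 encode further ring-modifying enzymes, and none of them had a peak within 30 kb. Coq3, the O-methyltransferase (chr4:21806820-21839309, plus strand), was the member farthest from any peak, at 1242 kb, and its 5 nearest peaks were all multi-copy. Coq5, the C-methyltransferase (chr5:115729675-115746981, plus strand), had its nearest peak 65.1 kb downstream, at chr5:115798459-115799059. That peak held AAGGTCA and lay 164 bp from the start of Cox6a1, a subunit of cytochrome c oxidase. The nearest peak to Coq6, the monooxygenase that hydroxylates the ring (chr12:85702607-85714746, plus strand), lay 76.2 kb upstream at chr12:85626134-85626734, 71 bp from the start of Ptgr2, a prostaglandin reductase.

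The remaining members, Coq4 and Coq9, encode proteins of the synthesis complex, COQ9 being a lipid-binding partner that COQ7 needs for its activity. Coq4 (chr2:29643013-29653455, plus strand) had its nearest peak 376 kb downstream, 83 bp from the start of Endog, the mitochondrial endonuclease G. Coq9 (chr8:97362221-97378795, plus strand) was the nearest of the members without a linked peak. Its nearest peak lay 52.4 kb upstream at chr8:97309481-97310081 and held no AAGGTCA, and a further one at 65.6 kb held TCAAGGTCA. The gene closest to both was the chemokine gene Cx3cl1, with starts at 13.7 kb and 480 bp. For all 8 members without a linked peak, the nearest peak lay nearer to another gene, and for 4 of them (Pdss2, Coq4, Coq5 and Coq6) it lay within 1 kb of that gene's start. Of all peaks, 29.8% lay within 1 kb of a start. Peaks more than 30 kb from a member readily have another gene nearer, so the count of 8 follows from how these members were set apart.

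Extended half-sites were present near 7 of the 8 members that had no peak. The letters TCAAGGTCA occurred 24 times within 30 kb of the starts of the members, and 0 of these lay in a peak. Around the starts of all protein-coding genes, 272 of 28038 such sites within 30 kb (0.97%) lay in a peak, so a count of 0 among 24 is near the share over all genes. The counts ran from 0 at Coq2 through 1 at Coq6 and Coq7, 3 at Pdss1, Coq3, Coq5 and Coq9 and 4 at Pdss2 to 6 at Coq4. Of the 24 sites, 13 lay inside the gene and 1 in an exon. At Coq7 the site lay 12056 bp downstream of a start, outside the peak. In a 60-kb window at the first coding start of each gene, 8 members and 77.3% of all protein-coding genes held the site, with a median of 3 sites over the members and 1 over all genes. The shorter AAGGTCA occurred 137 times within 30 kb of the members, 7 times at Coq2 and 23 times at Pdss2, again with 0 in a peak. Around all protein-coding genes 839 of 206909 (0.405%) did, so here too the members were near the overall share.

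Of the 24 extended sites, 3 lay within 1 kb of a start, at Coq9 and Coq4, and these are the first 3 of the short stretches printed above. One lay 328 bp upstream of a Coq9 start. The second lay in an exon of Coq9, 82 bp downstream of the start of a shorter processed transcript, and the site of Coq4 lay 951 bp upstream of the start of a transcript with a retained intron. Such sites were seldom within peaks anywhere: of 1926 TCAAGGTCA sites within 1 kb of the starts of protein-coding genes, 82 (4.26%) lay in a peak, and of 56720 in the genome, 320 (0.564%). Of the 1792 protein-coding genes with such a site within 1 kb of a start, 121 (6.75%) had a peak within 1 kb. Both members with such a site, Coq4 and Coq9, were among those without.

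The letters around the starts of the members were compared in windows of 601 bases at the first coding start. AAGGTCA was present at 1 of 9 members, Pdss1, 245 bp before the gene, where 7.81% of all protein-coding genes had it. Counted from any annotated start, it also lay within 1 kb at Coq2, Coq4, Coq5 (131 bp) and Coq9 (81 bp). The share of all genes by that rule is not given here. AGGTCA was present at 3 members (Pdss1, Coq3 and Coq7) and in 26.6% of all windows. TCAAGGTCA was present at 0 members and in 0.742% of windows. The nearest approach to it was TCAAGGTTA at Coq6, with 1 mismatch and 195 bp upstream of the start. The best match had 2 mismatches at Pdss1, Coq2, Coq3, Coq4, Coq7 and Coq9, and 3 at Pdss2 and Coq5. A match with 2 mismatches was thus not particular to Coq7. Of the other motifs, CCGGAAG was found at Pdss1 and Pdss2 (15.7% of all windows), CCAAT at Pdss1, Coq6 and Coq7 (53.3%) and GGGCGG at Pdss2, Coq3, Coq5, Coq6 and Coq9 (55.2%). GCATGCGC, CAAAGTCCA and TTTATGG were found at no member. The GC content of the windows ran from 46.4% at Coq2 to 69.7% at Coq9, with a median of 57.4% beside 56.9% over all genes.

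Further genes of coenzyme Q metabolism were described in 5 lists, 39 genes in all. Of these, 12 (30.8%, exact 95% interval 17 to 47.6%) had a peak within 30 kb, beside 8.75% of all protein-coding genes. Within 1 kb 10 (25.6%) had one, beside 2.08%. Complex III and cytochrome c, which take the electrons from coenzyme Q, held most of the 12, with 7 of 10 genes. Their peaks lay at 77 bp (Uqcrc2), 101 bp (Uqcrfs1), 104 bp (Uqcr10), 138 bp (Uqcrc1), 157 bp (Uqcrb), 161 bp (Uqcrq) and 518 bp (Cyc1) from a start. Without one were Uqcrh, Uqcr11 and Cycs, the last being cytochrome c itself. Complex II, which passes electrons from succinate to coenzyme Q, had 2 of 4: Sdha at 88 bp and Sdhd at 142 bp. The dehydrogenases that reduce coenzyme Q by other routes (Etfdh, Dhodh, Gpd2, Sqrdl, Prodh, Chdh, Aifm2 and Nqo1) had 0 of 8, the nearest being Nqo1 at 36.2 kb. Subunits of complex I, which also passes electrons to coenzyme Q, were in none of the lists.

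Genes that act closer to synthesis were kept in separate lists. Those that supply the isoprenoid units had 0 of 8 with a peak within 30 kb, and the nearest was at 77 kb. The accessory genes, whose products assist the synthesis of coenzyme Q or regulate, stabilise or move it, had 3 of 9 (33.3%, exact 95% interval 7.49 to 70.1%). The 3 were Pptc7, a mitochondrial phosphatase, at 1676 bp, Coq10a, a lipid-binding protein, at 1677 bp and Stard7, a lipid transfer protein, at 157 bp. The Stard7 peak was nearer to another gene, Gm10766, whose start lay 29 bp away. Those without were the kinase-like genes Coq8a and Coq8b (Adck3 and Adck4 in the annotation), Coq10b, Fdxr, Fdx2 (Fdx1l in the annotation) and Hpdl. The share of the synthesis genes, 1 of 9, was lower than those of the accessory genes, complex II and complex III. Counts of 1 of 9 and of 0 of 8 are both near the 8.75% of all protein-coding genes. The synthesis genes are therefore not set apart from the prenyl supply genes or the dehydrogenases, and the interval of the accessory genes takes in 8.75% too. With so few genes in each list the intervals are wide and overlap, and no difference between lists was tested.

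**Figure D3:**
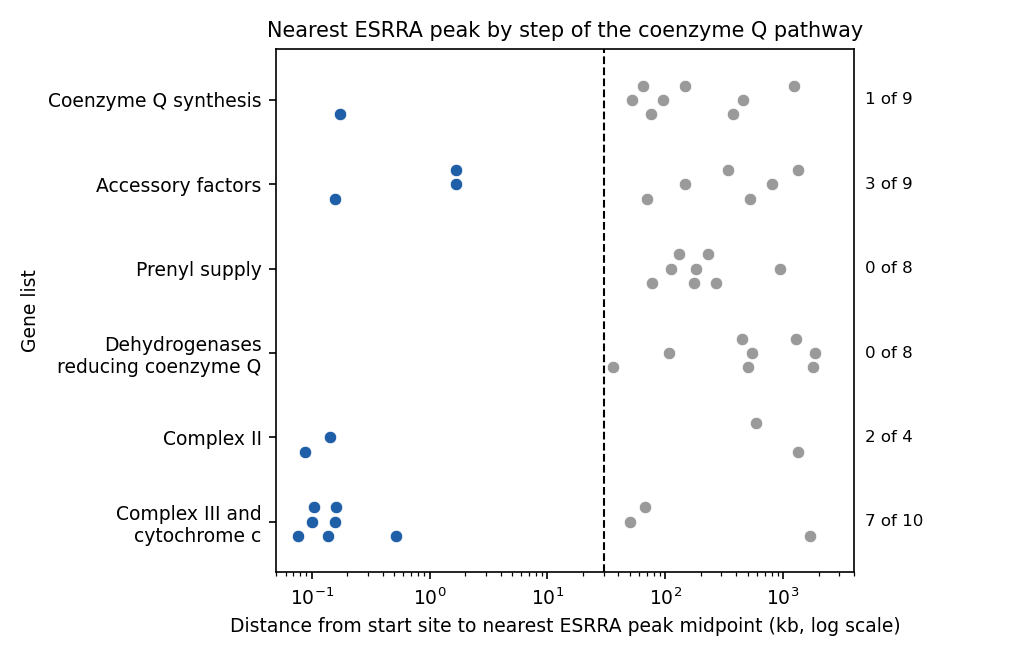
Distance in kb (log axis) from a start of each gene to its nearest ESRRA peak, 1 point per gene, for the synthesis genes and the 5 other lists of coenzyme Q metabolism, with the 30-kb limit marked. Complex III and cytochrome c have 7 of 10 genes within 1 kb, the synthesis genes 1 of 9, and the prenyl supply genes and dehydrogenases 0 of 8 each within 30 kb.

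The Coq7 peak lay within the range of the peaks of the other genes in each property compared. All 12 list peaks were single-copy, 11 had no other peak within 30 kb, and for 11 the nearest start was that of the list gene. Their GC content ran from 41.9 to 67.6%, with Coq7 inside this range. Their CpG dinucleotides numbered from 0.495 (Pptc7) to 1.03 (Uqcrq) of what their C and G content would give. The 0.962 of Coq7 was thus not particular to it. AAGGTCA was present in 8 of the 12 and TCAAGGTCA in 1 (Sdhd). The Coq7 peak held neither, like those of Coq10a, Uqcrfs1, Uqcrb and Stard7. The core AGGTCA was present in 9, and the best match had up to 1 mismatch in 5 and up to 2, as at Coq7, in 11. It lay within 50 bp of the midpoint in 6 of the 12, as it did at Coq7. Because ties went to the site nearest the midpoint, this position is drawn toward the midpoint. The share over all peaks is not given here, so no central placing of the match can be read from it. The best match of the Coq7 peak is printed here beside those of all 12 list peaks (mm9), in order of mismatches, with the match in capitals. Of all peaks, 93.1% had a match with up to 2 mismatches, so the capitals need not mark bound bases, and binding at them was not tested. The matches of Stard7, Coq10a, Uqcrb and Uqcrfs1 lack AGGTCA, which the Uqcrb peak held elsewhere. The first 5 list peaks have up to 1 mismatch and the last, Uqcrfs1, has 3.
Coq7, intron (chr7:125676615-125676643, minus strand): ctatttgcagTGGAGGTCAcggatgtcac
Sdhd, untranslated exon (chr9:50411900-50411928, plus strand): tttcgagggcTCAAGGTCActctacaacc
Cyc1, intron (chr15:76174446-76174474, minus strand): ctgcagcggaCCAAGGTCAcctgcaggcc
Uqcr10, intron (chr11:4604122-4604150, plus strand): tcaggcgggcCCAAGGTCAggatggccca
Uqcrc2, untranslated exon (chr7:127779078-127779106, plus strand): gggagattccTGAAGGTCActcgagaagc
Pptc7, intron (chr5:122736057-122736085, minus strand): cagcaagagcTGAAGGTCAgcctgcacta
Stard7, outside the gene (chr2:127095800-127095828, minus strand): ggagggcctgTCAAGGGCGcctggagagt
Sdha, untranslated exon (chr13:74487469-74487497, minus strand): tgctttccggCGAAGGTCAcgaccccgag
Coq10a, intron (chr10:127805449-127805477, minus strand): tagtgttgccTCAAAGGCAgctggcactt
Uqcrc1, intron (chr9:108838908-108838936, plus strand): cagggccgtgGGAAGGTCAtggcggaggg
Uqcrq, untranslated exon (chr11:53243921-53243949, minus strand): aatgactggcCTAAGGTCActtgggtgac
Uqcrb, intron (chr13:67005887-67005915, plus strand): tttgctccgaTCACTGTCActgaagtggc
Uqcrfs1, untranslated exon (chr13:30637145-30637173, minus strand): tcgttcgaacGAAAGGTCGtccctgtgac

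**Figure D4:**
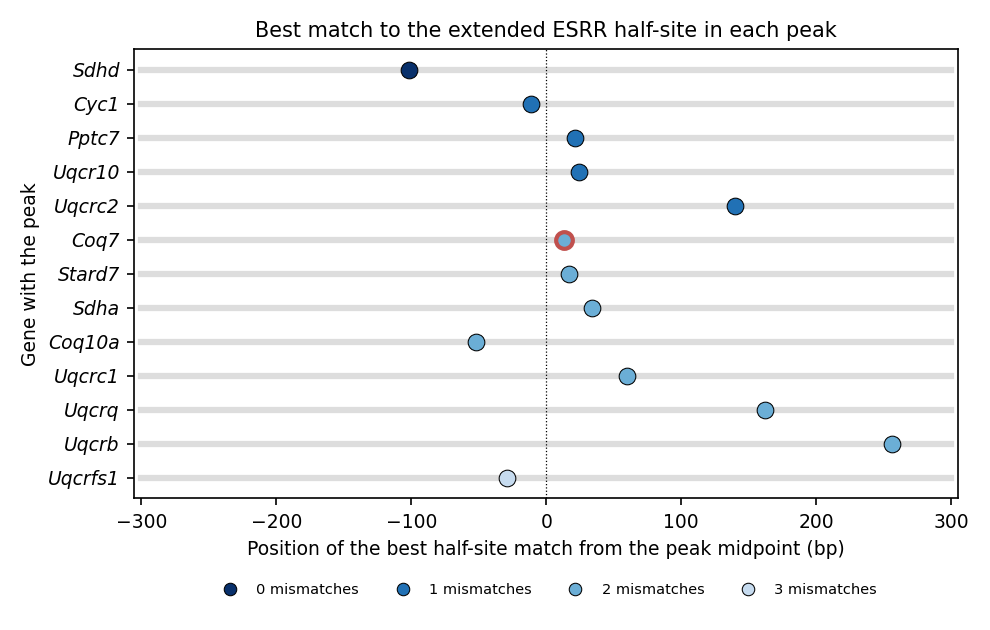
Position in bp, from the peak midpoint in the direction of transcription, of the best match to TCAAGGTCA in the Coq7 peak (ringed) and in each of the 12 list peaks, 1 peak per line, shaded by its number of mismatches. The Coq7 match lies 13 bp from the midpoint with 2 mismatches, and 6 of the 12 list peaks have theirs within 50 bp. Of equal matches, the one nearest the midpoint is drawn.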

How the data were processed

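Villus cells were cross-linked and their chromatin was sheared before immunoprecipitation of ESRRA. As the labels and the study's methods describe it, the authors checked reads with FastQC 0.11.3, aligned them to mm9 with Bowtie2 2.2.6, merged the ChIP libraries with SAMtools 0.1.19 and called peaks with MACS2 at a p-value of 1e-05. deepTools 2.4.2 is also named in the submitters' processing notes. How the input library entered the calling, any excluded regions and how all peaks came to have 1 width are not given in the sources used here. Merging hides peaks of 1 library alone, and a weak peak counts the same as a strong one. The deposited list gives coordinates (chromosome, start, end) in 3 columns, with no score or read count. The methods state a range of depth for the libraries, but the depth of each was not measured here.

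Positions are given from 1 in mm9 (genome NCBIM37, GENCODE M1). Every distance was measured from the peak midpoint to the nearest of all annotated transcript starts of a gene, and "nearest gene" covers genes of every type. Copies were counted for 24-base words on both strands, and a peak with a median above 10 was called multi-copy. Windows at starts reached 300 bases to each side. Of equal best matches to TCAAGGTCA, the one nearest the middle of the peak or window was taken. Intervals are exact (Clopper-Pearson) at the 95% level and cover counting error only. No test was run, because 1 pooled list has no replicates. Scripts used Python 3.11.15, numpy 2.4.6, scipy 1.17.1, pysam 0.24.0 and matplotlib 3.10.9, and the linking and motif steps were tested on simulated data.

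The members, pathway lists and motifs were chosen with earlier results of these data known. Named were all 9 members with their own or their nearest peaks, any gene nearer to such a peak, and every list gene with a peak within 30 kb. Other genes were named after their values were seen. Hmgcs1 matched no record by its symbol and is not analysed here. Other distances, start sites and motifs were tried as alternatives.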

Additional observations from a re-analysis of the deposited data

How the results depend on the processing

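The count of 1 member with a peak within 30 kb was the same under 9 of 10 alternatives: distances of 10 and 50 kb, starts of protein-coding transcripts or of the gene record only, the edge of the peak in place of its midpoint, multi-copy peaks left out, peaks under 1 kb apart joined, the nearest start only, and the gene body added. With 100 kb it was 5, with Coq2 counted from a start inside the gene. Protein-coding genes with a peak numbered 1038 at 10 kb and 4423 at 100 kb. The count of 1 member within 1 kb was the same under all 4 alternatives tried. Coq7 had its peak at 173 bp from a start and the next member at 52.4 kb, so these 4 could give only 1. The same holds for the distances of 10 and 50 kb above. Fewer starts or the edge of the peak could not change the count either, given these distances. The Coq7 peak was single-copy, had Coq7 as its nearest gene and lay 173 kb from the next peak. Leaving out multi-copy peaks, joining peaks or taking the nearest start only could therefore not remove it. All these settings say nothing of stability. The count of the pathway lists was within 1.5 times its value under all 4 of its own. The count of 0 member peaks holding AAGGTCA became 1 with AGGTCA. The 4 other settings were stricter and could give only 0, so they say nothing of its stability.

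Raising the peak threshold and dropping each replicate in turn were not run, as the list carries neither scores nor library-wise peaks. No paired analysis was possible because reads of the libraries were pooled before peak calling. For the 8 members without a peak, binding below the calling threshold cannot be told apart from no binding.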
